A study of Mus musculus with 6 samples.

Results

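The Acsm genes encode medium-chain acyl-CoA synthetases, and the mouse kidney count table lists 5 of them, Acsm1, Acsm2, Acsm3, Acsm4 and Acsm5, among 24434 gene symbols. The 5 rows were taken by symbol and were selected because Acsm3 stood far higher in diabetic than in control kidneys while its relatives differed far less. The level of every member in both genotypes is therefore a description and carries no test, and tests are given only for genes of related pathways and for chromosomal neighbours. The series holds 6 libraries of whole kidney RNA, 3 labelled db/m, the control genotype with 1 copy of the leptin receptor mutation, and 3 labelled db/db, the diabetic model with both copies mutated. Both genotypes were fed normal chow and received no other stated treatment, while their age, sex and background strain are unstated in the labels. Whether the 6 libraries stem from 6 separate animals is also unstated, so each p-value reflects library-to-library spread, which may be technical. In whole tissue, fewer cells of a type and less RNA per cell cannot be told apart.

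Acsm enzymes sit in the mitochondrial matrix and join a medium-chain fatty acid, or an aromatic acid such as benzoate, to coenzyme A at the cost of ATP. The resulting acyl-CoA can enter beta-oxidation, be conjugated to glycine and excreted in urine, or be hydrolysed again by a thioesterase. In the kidney these enzymes are known mainly from the proximal tubule, a segment rich in mitochondria that burns fatty acids for transport. Acsm1 is also known as a lipoate-activating enzyme, Acsm3 as the SA gene first described in hypertensive rats, and Acsm4 as a synthetase of the olfactory epithelium.

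To show how alike the members are, a stretch of 69 coding bases around the phosphate-binding loop, the segment that adenylate-forming enzymes use to hold ATP, is given for each gene from the GENCODE M21 transcripts (GRCm38). Capitals mark the 36 bases that are identical in all 5 members. Counted from the first base of the start codon, the stretch covers coding bases 643 to 711 in Acsm1, 715 to 783 in Acsm2 and 664 to 732 in Acsm3, Acsm4 and Acsm5.

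Acsm1: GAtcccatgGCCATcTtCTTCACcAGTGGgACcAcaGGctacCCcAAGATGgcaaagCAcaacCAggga
Acsm2: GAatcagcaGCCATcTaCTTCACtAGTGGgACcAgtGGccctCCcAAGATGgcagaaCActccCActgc
Acsm3: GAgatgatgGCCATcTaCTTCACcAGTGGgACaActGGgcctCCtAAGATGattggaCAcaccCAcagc
Acsm4: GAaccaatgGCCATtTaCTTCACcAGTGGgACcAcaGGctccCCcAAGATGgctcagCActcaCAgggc
Acsm5: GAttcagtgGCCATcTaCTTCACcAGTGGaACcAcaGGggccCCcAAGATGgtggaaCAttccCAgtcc

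Over their whole coding sequences the members were 59.9% (Acsm1 and Acsm3) to 65.7% (Acsm3 and Acsm4) identical. The longest run of bases shared by a pair was 15 to 26 bases, and the number of shared stretches of 50 bases was 0 in each of the 10 pairs. Reads from the coding part of Acsm3 therefore differ in sequence from those of Acsm2, its abundant relative, along any stretch of that length.

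The promoters of the members that differed most between genotypes, Acsm3 and Acsm2, are printed from RefSeq (GRCm38.p6), as the 250 bases before the annotated start, on the plus strand. Capitals mark matches, on either strand, to any of 5 motifs, namely CCAAT, the box of the same name, TATAAA, the core of the box that positions transcription starts, GTTAAT (a core element of HNF1, a proximal tubule and liver factor), AGGTCA (a nuclear receptor core element) and TGTTCT (a core element of the androgen and glucocorticoid receptors). Acsm3 lies at chr7:119760673-119760922 and the first listed start of Acsm2 at chr7:119554090-119554339.

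Acsm3: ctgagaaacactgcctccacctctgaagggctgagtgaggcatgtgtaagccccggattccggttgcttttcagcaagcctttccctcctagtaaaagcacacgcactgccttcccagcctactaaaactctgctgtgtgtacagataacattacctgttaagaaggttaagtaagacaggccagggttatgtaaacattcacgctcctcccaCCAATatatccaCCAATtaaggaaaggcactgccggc
Acsm2: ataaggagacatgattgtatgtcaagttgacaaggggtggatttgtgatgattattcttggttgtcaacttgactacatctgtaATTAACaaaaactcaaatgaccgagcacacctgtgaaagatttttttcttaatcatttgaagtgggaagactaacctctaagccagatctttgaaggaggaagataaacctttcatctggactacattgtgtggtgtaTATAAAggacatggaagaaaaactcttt

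The Acsm3 promoter held CCAAT at positions -37 and -25, counted back from the start, and no TATAAA. The Acsm2 promoter held TATAAA at -28 and, on the minus strand, GTTAAT at -166, and the window before a second Acsm2 start held none of the motifs. Of the other members, Acsm1 held CCAAT at -66 and AGGTCA on the minus strand at -107, Acsm5 held CCAAT on the minus strand at -235, and Acsm4 held none. Among 32851 RefSeq promoters of the same length, 33.9% held the CCAAT box, 12.4% the TATAAA core, 6.43% the HNF1 element and 14.0% the nuclear receptor element. The androgen and glucocorticoid receptor element, in 16.1% of those promoters, was in none of the 6 Acsm windows. These matches describe the letters and were not tested as binding sites.

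Library depth was 25937756 to 35931140 counts, and 16373 genes passed the filter on low counts and entered the edgeR quasi-likelihood test of db/db against db/m. Of these, 24.0% were called at an adjusted p below 0.05, with 13.1% called higher and 10.8% called lower in db/db. In 22.4% of tested genes all 3 db/db libraries lay above all 3 db/m libraries, and in 22.2% all lay below. The median log2 fold change over all tested genes was -0.06. Levels are given as CPM, counts scaled to the TMM-scaled library size. Proximal tubule markers were abundant in all 6 libraries, with a summed level over 10 S1 and S2 segment genes of 8905 to 12338 CPM in db/m and 11562 to 14374 CPM in db/db. Leukocyte markers (5 genes) summed to 9.89 to 22.3 CPM and 11.8 to 13.6 CPM. Adipocyte markers were highest in db/m replicate 3, at 155 CPM, and db/db replicate 3, at 283 CPM, against 50.6 to 71.2 CPM in the other 4 libraries.

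Acsm3 was at 14.5, 14.1 and 20.3 CPM in db/m replicates 1 to 3 and at 1028, 728 and 997 CPM in db/db replicates 1 to 3. Even the lowest db/db library, replicate 2, stood 5.17 log2 units above the highest db/m library, replicate 3. The means were 918 ± 165 CPM (SD, n = 3) in db/db and 16.3 ± 3.47 CPM (SD, n = 3) in db/m, a ratio of 56.4 and a log2 fold change of 5.82 (SE 0.23). By size of log2 fold change, Acsm3 was the 23rd highest of the tested genes. The db/m values rested on 398 to 630 counts per library and the db/db values on 18377 to 27323, so both levels were well above the detection limit of 3 counts.

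Acsm2, the abundant kidney member, was at 1446, 1283 and 1869 CPM in db/m and at 4682, 5645 and 4797 CPM in db/db. The genotypes did not overlap here either, and the gap from the highest db/m to the lowest db/db library was 1.32 on the log2 scale. Its means were 5041 ± 526 CPM (SD, n = 3) in db/db and 1533 ± 303 CPM (SD, n = 3) in db/m, a ratio of 3.29 and a log2 fold change of 1.72 (SE 0.17). Replicate 2 was the lowest db/db library for Acsm3 and the highest for Acsm2, whereas db/m replicate 3 was the highest db/m library for both.

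Acsm1, which can also activate lipoate, was at 163, 296 and 200 CPM in db/m and at 233, 261 and 214 CPM in db/db. The db/db values all fell inside the db/m range, which db/m replicate 2 set at its upper end. The log2 fold change was 0.10 (SE 0.21), between means of 236 ± 23.8 CPM and 220 ± 68.8 CPM (SD, n = 3 each). Acsm5 was at 114, 117 and 79.7 CPM in db/m and at 109, 118 and 114 CPM in db/db, so that the genotypes overlapped with db/m replicate 3 alone lower. Its log2 fold change was 0.13 (SE 0.15), between means of 114 ± 4.62 CPM and 104 ± 20.8 CPM (SD, n = 3 each). The sign of both small differences depended on scaling, since with libraries scaled by total counts alone they were -0.16 for Acsm1 and -0.12 for Acsm5. Without db/m replicate 1, Acsm1 was at -0.06, and without db/m replicate 2 at 0.38; without db/m replicate 3, Acsm5 was at -0.02.

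Acsm4, the olfactory member, had 1 count in db/db replicate 3 and 0 counts in each of the other 5 libraries, where 3 counts would be 0.0835 to 0.116 CPM of the total. It did not pass the filter, so 4 of the 5 members entered the fit. The 2 members whose genotypes did not overlap, Acsm2 and Acsm3, were both higher in db/db. Nothing is read from that count against the 22.4% of all tested genes, since the members were selected on this contrast.

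**Figure D1:**
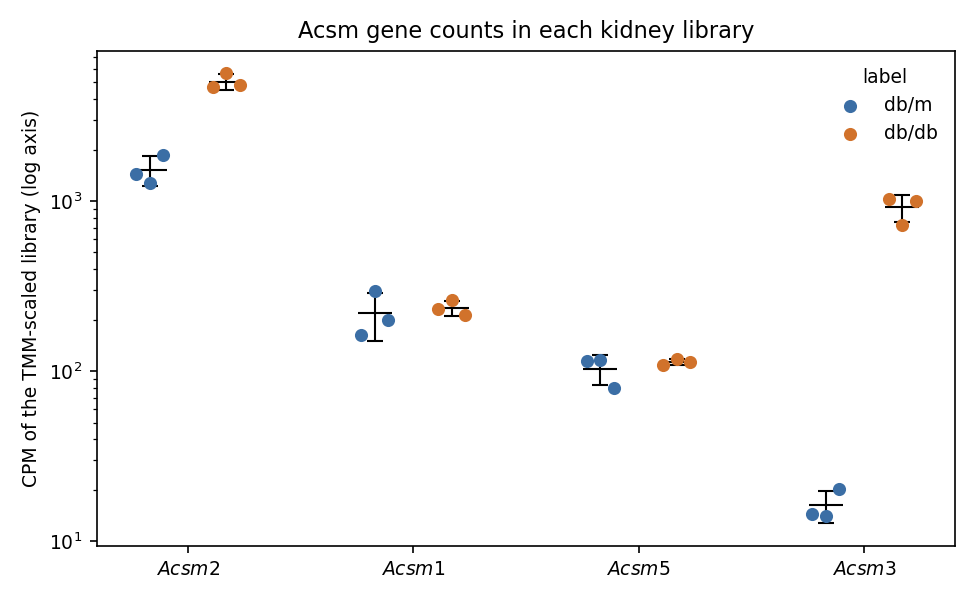
Level of each Acsm gene passing the filter in the 6 kidney libraries, in CPM of the TMM-scaled library on a log axis; points are libraries, long bars the mean and short bars the SD over 3 libraries. Acsm3 lies between 14.1 and 20.3 CPM in db/m and between 728 and 1028 CPM in db/db, Acsm2 is separated by less, and the points of Acsm1 and Acsm5 overlap.

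Spread within a genotype also differed among the members. In db/m the SD of log2 CPM was 0.44 for Acsm1, 0.31 for Acsm5, 0.29 for Acsm3 and 0.28 for Acsm2, against a median of 0.19 over all tested genes. In db/db it was 0.28 for Acsm3, 0.15 for Acsm2, 0.14 for Acsm1 and 0.06 for Acsm5, against a median of 0.17. Acsm3 was thus the most variable member among db/db libraries, and Acsm1 among db/m libraries.

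The members differ little in coding length (1719 to 1866 bases), and their levels are set side by side as CPM per kilobase of coding sequence. Counts may also take in untranslated exon bases. The annotated exon length was 2181 bases for Acsm1, 3799 for Acsm5 and 4936 for Acsm3. The levels, family shares and ratios between members given below therefore depend on the length used. In db/m the order was Acsm2 at 852 ± 168, Acsm1 at 128 ± 40.0, Acsm5 at 59.8 ± 12.0 and Acsm3 at 8.73 ± 1.86 CPM per kilobase (SD, n = 3). In db/db it was Acsm2 at 2801 ± 292, Acsm3 at 492 ± 88.4, Acsm1 at 137 ± 13.9 and Acsm5 at 65.6 ± 2.66 CPM per kilobase (SD, n = 3). Among the 4 members that passed the filter, Acsm3 was last in db/m and in the second place in db/db, and in both orders no neighbouring pair of members overlapped across the 3 libraries.

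The summed level of the family was 972, 960 and 1212 CPM per kilobase in db/m and 3350, 3747 and 3390 CPM per kilobase in db/db. Acsm3 made up 0.797%, 0.787% and 0.897% of that sum in db/m and 16.4%, 10.4% and 15.8% in db/db. Acsm2 made up 80.9% ± 5.95 in db/m and 80.0% ± 3.26 in db/db (SD, n = 3). The share of Acsm1 was 12.4% ± 4.78 in db/m and 3.92% ± 0.217 in db/db (SD, n = 3), although its own level overlapped between genotypes. All Acsm counts together were 0.184% to 0.243% of a db/m library and 0.558% to 0.608% of a db/db library.

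Ratios between members within a library do not depend on how libraries are scaled. Per coding length there were 104, 94.3 and 95.5 units of Acsm2 for each unit of Acsm3 in db/m, and 4.72, 8.04 and 4.99 in db/db. The db/m ratios lay close together although Acsm2 and Acsm3 each varied among those libraries. Acsm3 per Acsm1 went from a mean of 0.073 ± 0.026 to 3.64 ± 0.939, and Acsm2 per Acsm1 from 7.18 ± 2.65 to 20.4 ± 1.11 (SD, n = 3). The pair whose levels overlapped between genotypes, Acsm1 per Acsm5, stood at 2.17 ± 0.639 in db/m and 2.09 ± 0.176 in db/db (SD, n = 3).

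**Figure D2:**
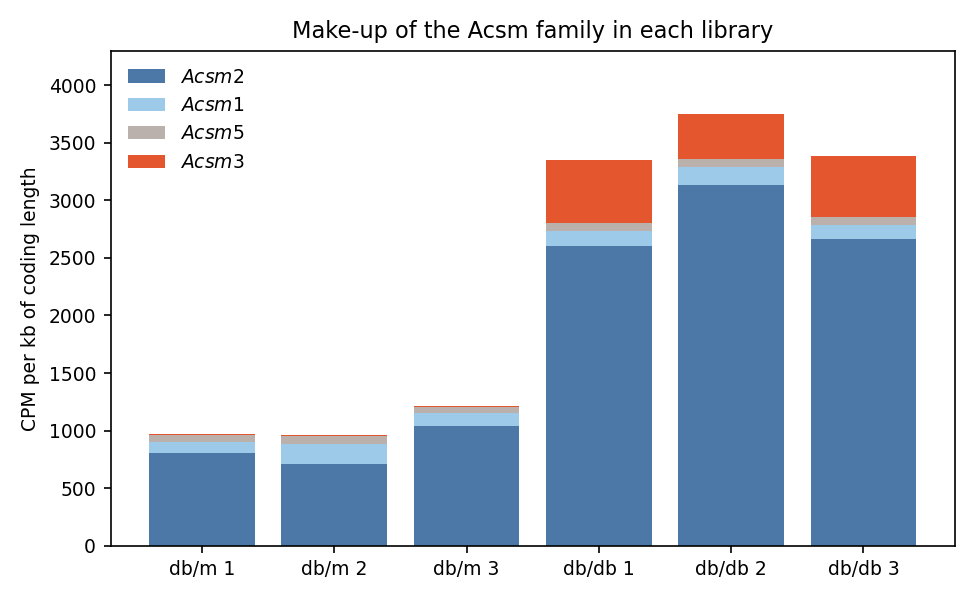
Level of the Acsm genes in each library, stacked, in CPM per kilobase of coding length. The stack sums to between 960 and 1212 in db/m and between 3350 and 3747 in db/db, and the Acsm3 layer, barely visible in db/m, makes up 10.4% to 16.4% of the db/db stacks.

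The 5 genes lie in 1 cluster on chromosome 7, all on the plus strand, in the order Acsm5, Acsm2, Acsm1, Acsm4, Thumpd1, Ppp1ccb and Acsm3 (RefSeq, GRCm38.p6, used for gene order). Umod, which encodes uromodulin, the major urinary protein of the thick ascending limb, lies on the Acsm5 side. Thumpd1 and Ppp1ccb, which separate Acsm3 from the other members, had log2 fold changes of 0.33 (SE 0.10, adjusted p = 0.0535) and 0.07 (SE 0.09, adjusted p = 0.579). Umod was at 0.25 log2 units (SE 0.25, adjusted p = 0.494). Thumpd1 was called with the DESeq2 Wald test (adjusted p = 0.0333), by edgeR with DESeq2 size factors (adjusted p = 0.0497) and by edgeR on leaving out db/db replicate 2 (0.41, adjusted p = 0.0414). These uncalled neighbours and Pdilt are named for their place in the cluster, after their values were seen.

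Of the 18 neighbours considered, the 2 within the cluster and 8 on either side, 16 were tested. Of these, 1 was called higher and 2 lower in db/db, a share of 18.8% called beside 24.0% of all tested genes, with a median log2 fold change of 0.13. Gprc5b, an orphan G protein-coupled receptor gene, fell (log2 fold change -1.31, SE 0.23, adjusted p = 0.00744) from 28.1 ± 2.16 to 11.4 ± 3.90 CPM (SD, n = 3). Anks4b, a scaffold gene of brush border microvilli, fell too (log2 fold change -0.45, SE 0.11, adjusted p = 0.0226). The Anks4b call ended when any 1 library was left out except db/m replicate 3, with adjusted p of 0.0605 to 0.0849.

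Eri2, an exonuclease gene that follows Acsm3 on the opposite strand, was at 5.34, 3.64 and 3.80 CPM in db/m and at 18.9, 7.49 and 9.60 CPM in db/db. All 3 db/db libraries lay above db/m, replicate 1 farthest, and the log2 fold change was 1.50 (SE 0.36, adjusted p = 0.0248). That call ended on leaving out db/m replicate 2 (1.40, adjusted p = 0.0815) or db/m replicate 3 (log2 fold change then 1.43, adjusted p = 0.0635). In GENCODE M21, Eri2 and Acsm3 share 1962 exonic bases, which is 39.7% of the Acsm3 and 27.4% of the Eri2 exon length. The libraries were strand-specific per the labels' protocols, but the sources used here do not give the strand setting of the counting, so reads of Eri2 and Acsm3 in the shared bases cannot be told apart. Eri2 counts equalled 36.9%, 25.9% and 18.7% of the Acsm3 counts in db/m and 1.84%, 1.03% and 0.963% in db/db. On the other flank, Acsm5 shares 104 exonic bases with Pdilt, a minus-strand gene that was not called (log2 fold change -0.47, SE 0.29, adjusted p = 0.262).

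**Figure D3:**
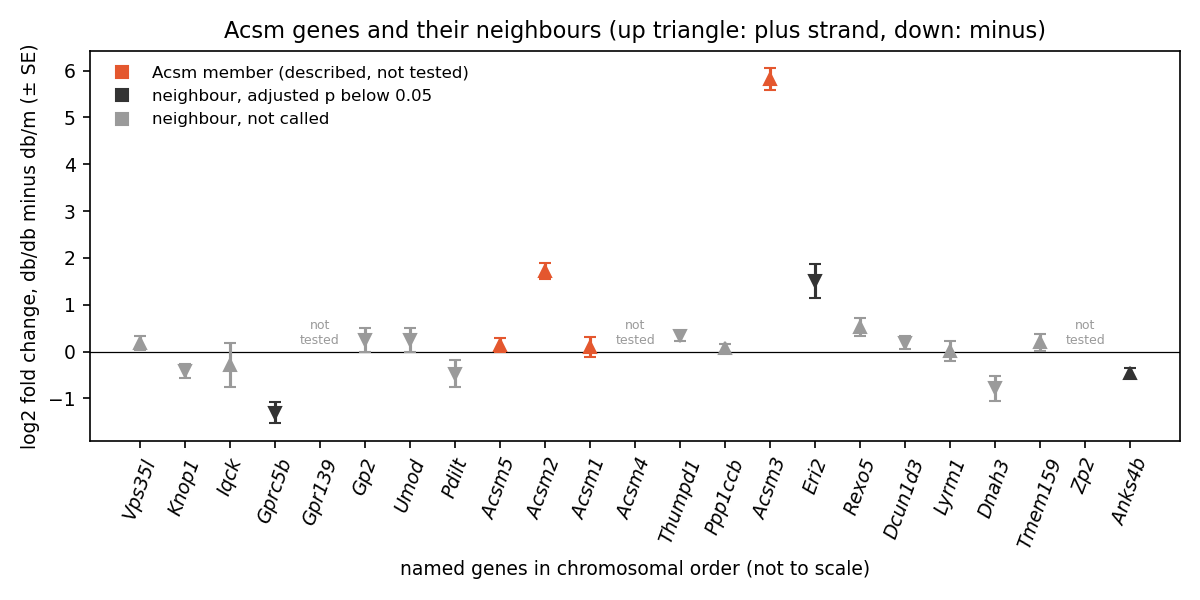
Log2 fold change, db/db minus db/m, with its SE for the Acsm genes and their neighbours in chromosomal order (not to scale); triangles show the strand, and dark symbols are neighbours with an adjusted p below 0.05. Acsm3 stands at 5.82 between Ppp1ccb at 0.07 and Eri2 at 1.50.

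Other genes of the pathways that supply or use acyl-CoA were read from the same fit in 8 lists. These lists were chosen with earlier results of these data known, so their shares of calls are no independent evidence. Of 70 listed genes, 62 were tested, and 26 were called higher and 6 lower in db/db, 51.6% beside 24.0% of all tested genes. All db/db libraries lay above all db/m libraries in 32 of the 62 genes and below in 9. Over all tested genes the shares were 22.4% above and 22.2% below. Their median log2 fold change was 0.30, beside -0.06 over all tested genes. With libraries scaled by total counts alone, 20 pathway genes were called higher and 14 lower, and the median of all genes went to -0.32. The higher calls of Acot13, Acsf3, Crat, Etfb, Glyat and Lias ended in that setting. The calls of Acsl3 (0.39), Mcat (0.41) and the neighbour Anks4b (-0.71) held there at those sizes.

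Among the other acyl-CoA synthetases, 17 of 21 listed genes were tested. Of these, 5 were called higher and 2 lower, 41.2% beside 24.0% of all tested genes. Their median log2 fold change was -0.27. The very-long-chain synthetase and fatty acid transporter Slc27a2 rose (log2 fold change 1.04, SE 0.10, adjusted p = 0.00114) from 2342 ± 129 to 4810 ± 297 CPM (SD, n = 3). Aacs, which activates acetoacetate for lipid synthesis, was at 60.8, 42.1 and 64.8 CPM in db/m and at 233, 179 and 178 CPM in db/db (log2 fold change 1.81, SE 0.19, adjusted p = 0.00123). In both genes the genotypes were fully separated. Acsf2, a mitochondrial synthetase reported to accept medium-chain acids, moved the other way, at 34.8, 50.8 and 32.6 CPM in db/m and 13.4, 13.1 and 11.7 CPM in db/db (log2 fold change -1.63, SE 0.18, adjusted p = 0.00155). Of the 6 tested long-chain synthetases, Acsl3 rose by 0.65 log2 units (SE 0.11, adjusted p = 0.00638), while Acsl1, the main form for beta-oxidation, was at -0.45 log2 units (SE 0.14, adjusted p = 0.06). With all 6 libraries and TMM scaling, edgeR called no long-chain synthetase lower and 3 were lower at an unadjusted p under 0.05. Other settings did call some lower: Acsl1 with the DESeq2 Wald test, Acsl1 and Acsl4 with upper quartile scaling, Acsl1, Acsl4 and Acsl6 with total counts alone, and Acsl6 with limma-voom. Leaving out 1 library did so for Acsl4 and Acsl5 (db/m replicate 1), Acsl1 (db/m replicate 3) and Acsl6 (db/db replicate 3).

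Glycine N-acyltransferases use the acyl-CoA and benzoyl-CoA that Acsm enzymes make. Keg1, a kidney-expressed member of that family, was at 418, 457 and 555 CPM in db/m and at 1719, 1574 and 1555 CPM in db/db (log2 fold change 1.76, SE 0.13, adjusted p = 0.00033). The lowest db/db library was well above the highest db/m library. Glyat rose by 0.60 log2 units (SE 0.16, adjusted p = 0.0307), from 413 ± 75.7 to 626 ± 76.1 CPM (SD, n = 3). That call ended with total counts alone (0.34, adjusted p = 0.089), and on leaving out replicate 2 or 3 of either genotype (adjusted p of 0.0535 to 0.094). Glyat and the third tested gene, Gm4952, were named after their values were seen. Gm4952 was at 0.86 log2 units (SE 0.39, adjusted p = 0.143).

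Medium-chain oxidation genes were called higher in 7 and lower in 1 of 11 cases, 72.7% beside 24.0% of all tested genes. Their median log2 fold change was 0.44. The higher calls of Crat and Etfb ended with total counts alone (adjusted p = 0.243 and 0.184). Both also ended on leaving out replicate 2 or 3 of either genotype (adjusted p of 0.05035 to 0.0797). Crot, the peroxisomal carnitine octanoyltransferase, was at 103, 125 and 121 CPM in db/m and at 543, 380 and 584 CPM in db/db (log2 fold change 2.11, SE 0.17, adjusted p = 0.00052). Its lowest db/db library was replicate 2, as for Acsm3. Acadm, the medium-chain acyl-CoA dehydrogenase that takes over the product of the Acsm reaction, is added for that role after its values were seen. It rose from 510 ± 40.0 to 970 ± 202 CPM (SD, n = 3; log2 fold change 0.93, SE 0.16, adjusted p = 0.00795), with db/db replicate 2 lowest at 737 CPM. Other pathway genes called higher, among them Glyat (709 CPM), Nudt19 (2502 CPM) and Acot11 (143 CPM), were instead highest in db/db replicate 2. The gene called lower, Acaa2, a mitochondrial thiolase and likewise named after its values were seen, fell by 0.70 log2 units (SE 0.21, adjusted p = 0.0455). The Acaa2 call ended when any 1 library was left out except db/m replicate 3, with adjusted p of 0.062 to 0.137, and without db/m replicate 1 its log2 fold change was -0.43.

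Thioesterases, which split acyl-CoA again, were called higher in 5 and lower in 3 of 14 tested genes, 57.1% beside 24.0% of all tested genes. Their median log2 fold change was 0.08. Acot12, an acetyl-CoA hydrolase, was at 276 ± 36.9 CPM in db/db and 90.8 ± 21.7 CPM in db/m (SD, n = 3; log2 fold change 1.61, SE 0.18, adjusted p = 0.00168). Acot11 rose from 46.9 ± 11.8 to 123 ± 17.5 CPM (log2 fold change 1.39, SE 0.19, adjusted p = 0.00333). Acot3, a peroxisomal form, fell (log2 fold change -1.79, SE 0.20, adjusted p = 0.00169), and because it belongs to a cluster of closely related Acot genes its reads could have been divided among them. Baat, the bile acid conjugating enzyme, was at 2.18, 8.91 and 2.54 CPM in db/m and at 0.482, 0.911 and 0.913 CPM in db/db (log2 fold change -2.56, SE 0.62, adjusted p = 0.0246). The size of the Baat difference was set largely by db/m replicate 2, without which it was -1.61 (adjusted p = 0.0379). The Baat call ended under limma-voom, at an adjusted p of 0.0608, and on leaving out any 1 of the 3 diabetic libraries (adjusted p of 0.0722 to 0.0823).

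Coenzyme A itself is the second substrate of the Acsm reaction. Of the 13 tested genes of its synthesis, transport and breakdown, 5 were called higher, 38.5% beside 24.0% of all tested genes. Their median log2 fold change was 0.43. Pank1, a pantothenate kinase at the first step of synthesis, rose by 1.42 log2 units (SE 0.09, adjusted p = 0.00022), from 142 ± 12.2 to 378 ± 14.6 CPM (SD, n = 3). Coasy, which completes the last steps, rose by 1.19 log2 units (SE 0.09, adjusted p = 0.000361). Nudt19, a peroxisomal CoA-degrading hydrolase of the kidney, was at 329, 390 and 471 CPM in db/m and at 2021, 2502 and 2279 CPM in db/db (log2 fold change 2.52, SE 0.16, adjusted p = 0.000205). Nudt8, the mitochondrial CoA hydrolase, rose by 1.23 log2 units (SE 0.10, adjusted p = 0.000415). Genes of both synthesis and breakdown were thus among those that rose.

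Protein lipoylation, the process linked to the lipoate activity of Acsm1, had 2 of 4 tested genes called higher, 50% beside 24.0% of all tested genes. The median log2 fold change was 0.19. Mcat, which transfers malonyl units to the carrier protein of mitochondrial fatty acid synthesis, rose by 0.68 log2 units (SE 0.09, adjusted p = 0.00235). Lias, the lipoyl synthase, rose by 0.34 log2 units (SE 0.07, adjusted p = 0.0167), a call that ended with total counts alone (0.08, adjusted p = 0.41) and on leaving out control replicate 2 or diabetic replicate 1 or 3 (adjusted p of 0.0533 to 0.0641). In the Slc27a, glycine conjugation, lipoylation and coenzyme A lists, edgeR with TMM scaling called no gene lower, none was lower at an unadjusted p under 0.05, and DESeq2 called none lower. With libraries scaled by total counts alone, edgeR called Slc27a3 (-0.59, adjusted p = 0.0266), Lipt1 (-0.65, adjusted p = 0.026) and Pank4 (-0.36, adjusted p = 0.0319) lower.

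**Figure D4:**
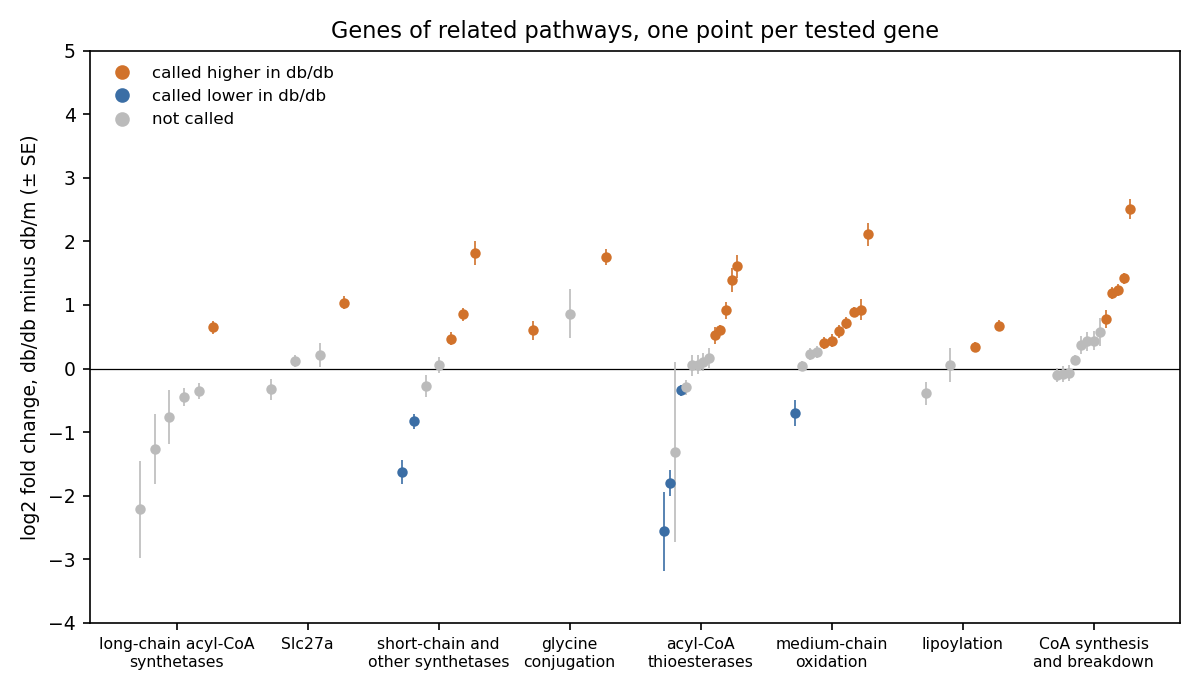
Log2 fold change, db/db minus db/m, with its SE for each tested gene of the 8 pathway lists, coloured by whether the adjusted p was below 0.05 and in which direction. Of 62 points, 26 are called higher and 6 lower, and Nudt19 at 2.52 and Crot at 2.11 are the 2 highest.

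To name genes with a like pattern, the log2 CPM profile of each gene was centred on its own mean over the 6 libraries, and the root mean square difference from the member's profile was taken. Nearest to Acsm3 were Mettl7a3 (0.45), Mettl7a2 (0.59), Ctxn3 (0.60), Pzp (0.68) and Kap (0.71), all in log2 units over 6 libraries. Its own relatives were much farther off, Acsm2 at 2.06, Acsm5 at 2.86 and Acsm1 at 2.87. The profiles share the same 6 libraries and their genotype difference, so the likeness is a description.

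Mettl7a3, a methyltransferase-like gene with near-identical copies among which reads could have been divided, was at 0.182, 0.152 and 0.322 CPM in db/m and at 37.5, 12.1 and 28.1 CPM in db/db. Mettl7a2, from the same group of copies, was at 5.20, 4.43 and 2.96 CPM in db/m and at 185, 83.8 and 159 CPM in db/db. Both were lowest among the db/db libraries in replicate 2, as Acsm3 was. Ctxn3 was at 0, 0.0759 and 0.0644 CPM in db/m and at 7.99, 12.7 and 10.6 CPM in db/db, highest in replicate 2. The db/m values of Ctxn3 and Mettl7a3 lay near the detection limit, where log2 CPM depends on the prior count of 2. Their nearness to Acsm3 therefore depends on that setting too. Pzp, a protease inhibitor gene of the alpha-2-macroglobulin family, was at 2.83 to 8.15 CPM in db/m and 109 to 122 CPM in db/db. Kap, the kidney androgen-regulated protein gene of the proximal tubule, was at 292, 231 and 1400 CPM in db/m and at 33061, 35459 and 36390 CPM in db/db. Like Acsm3, it was highest among db/m libraries in replicate 3, by a wider margin.

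The profile of Acsm2 had closer company, with Proz, which encodes protein Z of the clotting system, at 0.09 and Galns, a lysosomal sulfatase gene, at 0.10, followed by Abhd11os (0.11), Flt3 (0.11) and Nt5dc2 (0.12). Galns was at 53.5, 48.0 and 71.3 CPM in db/m and at 197, 187 and 184 CPM in db/db, with db/m replicate 3 the highest control as for Acsm2. Nearest to Acsm1 were Ccl21d (0.05), Dpep1 (0.07), Hcst (0.11), Hoxb5os (0.12) and Idnk (0.12). Dpep1, the brush border dipeptidase of the proximal tubule, was at 113, 219 and 142 CPM in db/m and at 169, 211 and 157 CPM in db/db, and so shared the high db/m replicate 2 of Acsm1. Nearest to Acsm5 were Ccdc17 (0.05), Zfp870 (0.05), Aopep (0.06), Aff2 (0.06) and Cyb5d1 (0.06). Aopep, an aminopeptidase gene, was at 67.8, 69.6 and 48.4 CPM in db/m and 58.6, 70.5 and 67.3 CPM in db/db, with db/m replicate 3 low as in Acsm5.

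**Figure D5:**
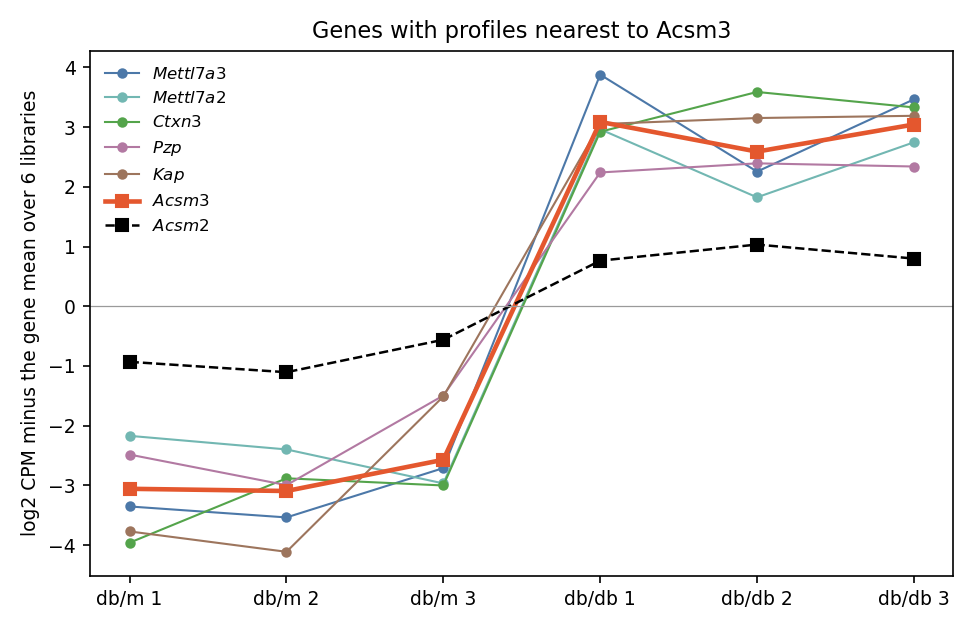
Log2 CPM minus each gene's mean over the 6 libraries (x axis: libraries, in label order with no order implied; lines only join the points of a gene) for Acsm3, its 5 nearest genes and Acsm2. The 5 nearest genes differ from the Acsm3 profile by 0.45 to 0.71 log2 units and Acsm2 by 2.06.

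Markers of tubule segments and of sex-biased expression moved with the genotype and therefore with Acsm3 and Acsm2. All counts of called markers stand beside 24.0% of all tested genes called, 13.1% higher and 10.8% lower. Of 6 markers of the S3 segment, the last part of the proximal tubule, 5 were called higher in db/db. The summed level of the 6 was 336 to 560 CPM in db/m and 2410 to 3253 CPM in db/db. In db/db the largest parts of that sum were Atp11a (1284 to 1447 CPM) and Slc7a13 (543 to 791 CPM). Single S3 markers differed in size, from 0.89 log2 units for Slc5a8 to 5.37 for Slc22a7, and Slc22a19 was not called. Of 10 S1 and S2 markers, 1 was called higher (Slc22a6, 1.57 log2 units) and 2 lower (Gatm, -1.29, and Slc5a12, -0.60). The summed S1 and S2 ranges overlapped, but their largest part was Slc34a1, at 4033 to 6422 CPM in db/m and 6195 to 8185 CPM in db/db. In the S3 sum db/m replicate 3 was the highest control and db/db replicate 2 the lowest diabetic library, as for Acsm3.

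Of 8 genes listed as higher in male than in female mouse kidney, Kap among them, 7 were called higher in db/db, and their sum was 1082 to 2756 CPM in db/m and 41031 to 45114 CPM in db/db, where most of it came from Kap. Of 4 genes listed as higher in females, Slc7a12, Prlr and Cyp4a14 were called lower, and Cyp2d9, which is better known as a male-biased gene, was at 0.04 log2 units (SE 0.28) and was not called. The sum of these 4 genes was 959 to 1158 CPM in db/m and 321 to 479 CPM in db/db. Most of it was Cyp4a14 in db/m (586 to 853 CPM) and Cyp2d9 in db/db (206 to 276 CPM). These lists were chosen with earlier results of these libraries known and are no independent evidence of direction. The part of segment make-up or of sex-biased expression in the Acsm3 and Acsm2 differences was not tested, and with both marker sums separated by genotype they cannot be told apart from it.

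Distal convoluted tubule markers were called lower in 3 of 4 cases, with sums of 1218 to 1904 CPM in db/m and 845 to 924 CPM in db/db. Of 4 podocyte markers 1 was called lower, and the sums were 301 to 359 CPM in db/m and 221 to 304 CPM in db/db. Of 6 collecting duct markers, Slc26a4 was called higher and Aqp2 and Slc4a1 lower, and the sums, 898 to 1341 CPM and 561 to 731 CPM, were mostly Aqp2 in db/m. Thick ascending limb sums, 2258 to 3322 CPM and 1956 to 3884 CPM, overlapped and were mostly Umod, while of the 5 markers Kcnj1 was called lower and the median log2 fold change was -0.89. Endothelial sums, 104 to 185 CPM and 167 to 190 CPM, overlapped. Hepatocyte markers (6 genes), listed because liver also expresses Acsm genes, summed to 211 to 296 CPM in db/m and 246 to 325 CPM in db/db, and the ranges overlapped. Single members moved in opposite directions, with Ttr called higher (3.99 to 43.5 CPM in db/m and 176 to 240 CPM in db/db) and Serpina1a lower (160 to 258 CPM and 47.7 to 66.3 CPM). The defining hepatocyte gene Alb was at 4.53 to 16.9 CPM over the 6 libraries, and Ahsg was at 0 to 0.713 CPM. The part of these cell types in the Acsm differences was not tested.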

How the data were processed

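Whole kidney RNA from 3 db/m and 3 db/db mouse libraries was analysed from 1 deposited table. The authors deposited raw counts, whole numbers for each gene symbol and library. The submitters' processing notes name HISAT2, StringTie, SAMtools, fastp, FastQC and DESeq2 but no version or role of any, and the sources used here give neither build, annotation nor counting settings. Each column was assigned by its name. Within a genotype, pairs of libraries had a chi-square of 15.9 to 59.5 per degree of freedom, more than counting noise gives, and all 6 were kept.

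The members and all gene lists were chosen with earlier results of these data known. From the counts, filterByExpr kept 16373 genes. The TMM factors that scaled the libraries split by genotype, at 1.062 to 1.122 in db/m and 0.901 to 0.923 in db/db. The db/db libraries were compared with db/m by the edgeR quasi-likelihood test (edgeR 4.0.16, R 4.3.3), without covariates. Benjamini-Hochberg adjustment was made over all genes tested. Genes with an adjusted p below 0.05 were called. Log2 CPM profiles used a prior count of 2. Named genes were the members, called neighbours, the 5 nearest profiles of each member (predicted and clone symbols left out), and in each pathway list the called genes with a log2 fold change of at least 1 in size or, where there were none, the 2 with the smallest p. Other genes were named after their values were seen. The fit was tested on simulated data. Alternatives were DESeq2 1.42.0, limma-voom (limma 3.58.1), other scalings and filters, leaving out mitochondrial genes, a replicate block and leaving out each library. Coding sequences came from GENCODE M21 and were aligned with Biopython 1.88. Counting limits of 3 counts cover counting error only.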

Additional observations from a re-analysis of the deposited data

How the results depend on the processing

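Acsm3 kept a log2 fold change of 5.55 to 6.02 and Acsm2 of 1.45 to 1.89 under the 15 alternatives run. Acsm1 ranged from -0.16 to 0.38 and Acsm5 from -0.12 to 0.23, so neither had a direction. With total counts only, which moved the median of all genes from -0.06 to -0.32, Acsm2 was at 1.45 and Acsm5 at -0.12. In that setting 1072 genes were called higher and 4883 lower in place of 2151 and 1774, and 4 neighbours were called lower. Of the pathway genes, 20 were called higher and 14 lower in place of 26 and 6. DESeq2 size factors and the DESeq2 Wald test called 2 neighbours higher in place of 1, adding Thumpd1.

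Leaving out 1 library gave 1374 to 2011 genes called higher, fewest without db/db replicate 3, with 1395 without db/m replicate 2. It gave 851 to 1523 called lower, fewest without db/m replicate 2, with 891, 994 and 1038 without db/db replicates 3, 2 and 1. Neighbours called higher were 0 to 3 (0 without db/m replicate 2 or 3, 3 without db/m replicate 1) and called lower 1 to 3. Pathway genes called higher were 20 to 29, fewest without db/m replicate 2. Those called lower were 3 to 7, with 3 without db/db replicate 1 or 2. Leaving out a library also leaves fewer samples to estimate the spread. Of the remaining changes the cause was not tested.

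Same-numbered libraries of the 2 genotypes did not deviate together (correlations of -0.15, 0.06 and 0.14), so the numbers were not taken to pair them. A replicate block gave 1313 genes called higher, 973 lower and 1 neighbour lower, with Acsm3 at 5.82 and Acsm2 at 1.73. With it, 21 pathway genes were called higher and 4 lower. It ended 8 calls of pathway genes and neighbours (adjusted p of 0.0521 to 0.099). These were Acaa2, Acot4, Acsf3, Anks4b, Crat, Etfb, Glyat and Lias. Depth limits Acsm4, for which levels under about 3 counts per library could not be detected.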
